A study of Mus musculus with 4 samples.

Results

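The genes described here carry out the presentation of peptides on major histocompatibility complex (MHC) class I molecules. They are H2-K1, H2-D1 and H2-T23, which encode heavy chains, B2m, which encodes the light chain, the peptide transporter genes Tap1 and Tap2, the tapasin gene Tapbp, and the immunoproteasome genes Psmb8 and Psmb9. Every non-control probe carrying 1 of these 9 names was taken, which gave 16 probes out of 41174 on the array, and 9 gene names out of 27389. All 16 probes passed the filter on dim probes, 5 of the genes had more than 1 probe, and 13 of the probes lay on chromosome 17, the other 3 being the B2m probes on chromosome 2.

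RNA came from neurospheres, floating cultures of neural stem cells kept with epidermal growth factor (EGF) and no serum, of mice from a 129/Sv and C57BL/6 cross. A pair of lines mutant for the Notch ligand gene Dll1, named Dll1-3 and Dll1-5, was each set against wild-type (WT) neurospheres on 2-colour Agilent arrays, with a pool of total RNA from 3 in each replicate. A line was run on 2 dye-swapped arrays, replicate 1 with the mutant in Cy5 and replicate 2 with the mutant in Cy3, so the study has 4 arrays. The nature of the Dll1 alleles, the age of the mice, the MHC haplotype of each line and whether the lines shared a wild-type pool are not given in the sources used here. The submitters describe 2 biological replicates, each dye-swapped, and it is not settled whether the 2 arrays of a line hold the same pools. For that reason the arrays of a line were averaged and counted as 1 sample (n = 2 lines). The p-values measure only the spread between these samples. In cultured cell populations, fewer cells of a type and less RNA per cell cannot be told apart.

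As background, class I molecules show peptides from inside the cell to CD8+ T cells and natural killer cells. The proteasome cuts proteins into peptides, TAP1 and TAP2 carry them into the endoplasmic reticulum, tapasin helps to load them, and a heavy chain leaves for the cell surface paired with beta-2 microglobulin. Neural cells are known for low surface class I, and interferon raises most of these genes together through factors such as IRF1 and NLRC5.

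By channel, the share of probes well above background ran from 80.0% to 82.1%, and 34444 probes had the values needed for the test. Dll1, the mutated gene, was lower in both lines, with array log2 ratios of -3.31 and -3.22 in Dll1-3 and of -1.65 and -1.64 in Dll1-5. Whether its probe lies in the altered part of the gene is unknown here. The probe is on chromosome 17 too, at positions 13371312 to 13371371. The array files give these positions, and those below, without naming a genome build. Of 12 neural stem cell markers measured, 6 were lower and 1 was higher at an unadjusted p under 0.05 (15.9% and 12.3% of all genes), and none passed after adjustment.

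Promoter sequence is shown for 4 genes because the heavy chain, light chain and transporter genes gave different log2 ratios in the mutants. Each run is the 250 bases before the annotated start, read 5′ to 3′ on the gene's strand, from RefSeq (build GRCm38.p6). Capitals mark matches, on either strand, to GGGGATTCC (NF-kB), AANNGAAA (interferon regulatory factors, IRF), CCAAT (the CCAAT box) and TGACG (the CRE half-site). None of the matches overlapped another. They describe these letters and are not binding data. H2-K1 (chr17:34000348-34000597, minus strand) and H2-D1 (chr17:35262844-35263093, plus strand) are heavy chain genes, B2m (chr2:122147437-122147686, plus strand) encodes the light chain, and Tap1 (chr17:34187306-34187555, plus strand) encodes a transporter subunit.
H2-K1: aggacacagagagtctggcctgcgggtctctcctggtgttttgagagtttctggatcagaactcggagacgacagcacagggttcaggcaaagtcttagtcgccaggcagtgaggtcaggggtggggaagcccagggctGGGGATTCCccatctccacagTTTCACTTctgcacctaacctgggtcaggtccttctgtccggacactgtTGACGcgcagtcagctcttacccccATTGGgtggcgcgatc
H2-D1: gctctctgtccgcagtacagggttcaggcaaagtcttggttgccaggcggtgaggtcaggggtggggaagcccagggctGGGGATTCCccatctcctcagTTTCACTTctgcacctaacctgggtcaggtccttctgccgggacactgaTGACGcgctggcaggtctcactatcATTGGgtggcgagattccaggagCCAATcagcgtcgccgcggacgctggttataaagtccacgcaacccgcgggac
B2m: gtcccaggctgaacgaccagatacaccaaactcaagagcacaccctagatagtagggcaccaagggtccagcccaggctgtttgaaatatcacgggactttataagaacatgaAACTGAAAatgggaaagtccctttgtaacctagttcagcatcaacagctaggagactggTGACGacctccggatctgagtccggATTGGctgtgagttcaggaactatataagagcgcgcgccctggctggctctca
Tap1: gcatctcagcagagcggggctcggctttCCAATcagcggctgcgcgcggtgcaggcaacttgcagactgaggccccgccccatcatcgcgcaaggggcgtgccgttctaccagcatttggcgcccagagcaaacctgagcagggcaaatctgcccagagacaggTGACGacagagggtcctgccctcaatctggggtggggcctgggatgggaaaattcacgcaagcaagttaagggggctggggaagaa

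Over all 32536 promoter windows of the same length, 0.215% held the NF-kB letters, 21.3% the IRF letters, 33.8% the CCAAT box and 17.9% the CRE half-site. Of the 8 members with a window, 2 held the NF-kB letters, 4 the IRF letters, 7 the CCAAT box and 5 the CRE half-site. H2-K1 and H2-D1, the 2 with the NF-kB letters, matched at 161 of 177 aligned bases (91.0%). The windows of Tap1 and Psmb9, neighbours read in opposite directions, shared 225 bases. Tap2 was not found among the promoter sequences.

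**Figure D1:**
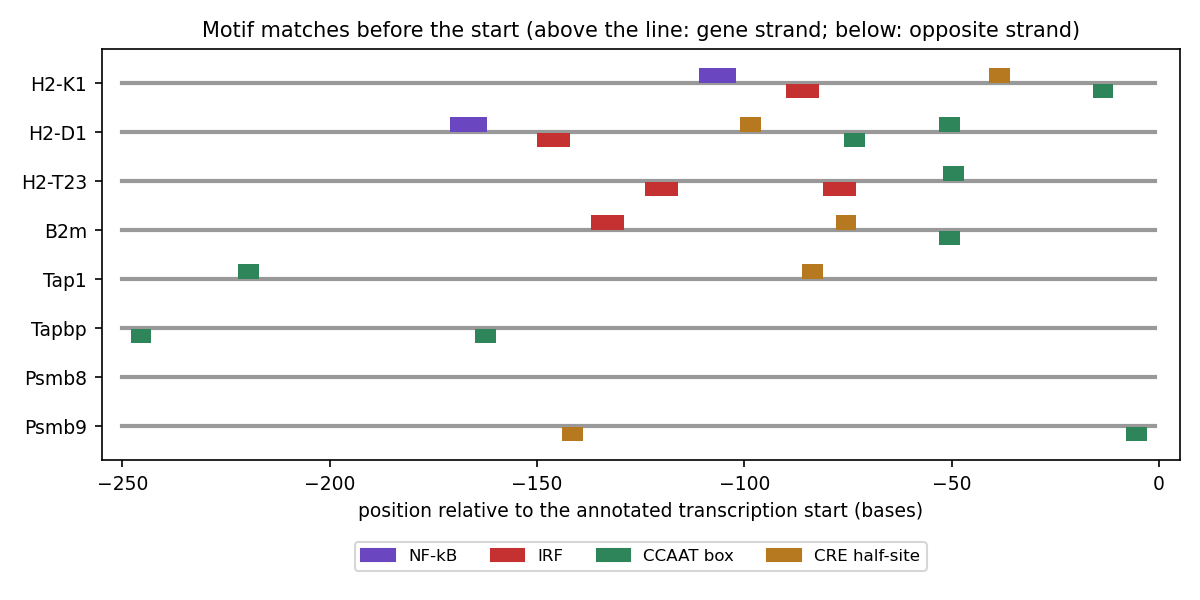
Motif matches in the 250 bases before the annotated start of 8 class I pathway genes, as distance from the start in bases; boxes above a line are on the gene's strand and boxes below it on the opposite strand. The NF-kB letters appear in H2-K1 and H2-D1, and Psmb8 holds none of the 4 motifs.

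H2-K1 encodes a classical class I heavy chain, and its 3 probes gave different pictures. Probe 1 (A_51_P198434, chromosome 17, 31700159 to 31700218, minus strand) was 6.37-fold below wild type in the Dll1-5 line and 1.28-fold below it in the Dll1-3 line. Probes 2 and 3, which lie 3364 and 3174 bases away, were slightly above wild type in Dll1-3 and slightly below it in Dll1-5. Probe 1 is listed for a complete H2-K1 cDNA, and the macrophage cDNA that names probes 2 and 3 is in its list too.

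On probe 1, wild-type intensity on the log2 scale was 10.40 and 10.39 beside the Dll1-3 mutant and 10.26 and 10.28 beside the Dll1-5 mutant. Mutant intensity was 9.99 and 10.09 in Dll1-3 and 7.55 and 7.65 in Dll1-5. Wild type was thus nearly level over the 4 arrays, while the Dll1-5 mutant stood apart from every other channel. The log2 ratios of mutant over wild type were -0.41 and -0.30 in Dll1-3 and -2.71 and -2.63 in Dll1-5. Their mean over the lines was -1.51 ± 1.64 (SD, n = 2 lines), with a limma adjusted p of 0.316. The difference between the lines was -2.31, or 4.98-fold, with an adjusted p of 0.000852 in limma when the 4 arrays were counted as separate samples.

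Probe 2 (A_52_P474242, 31703582 to 31703829) had log2 ratios of 0.23 and 0.21 in Dll1-3 and -0.20 and -0.04 in Dll1-5. The sign differed between the lines on every array. The difference of -0.34 had an adjusted p of 0.102 with arrays counted as samples, and of 0.0244 with dye orientation as a replicate block. Probe 3 (A_52_P50496, 31703392 to 31703451) had log2 ratios of 0.15 and 0.04 in Dll1-3 and -0.43 and -0.48 in Dll1-5. Its difference of -0.55 had an adjusted p of 0.0220 in the same arrays-as-samples fit. Probe 3 was dim, and the scanner software's own ratios put its Dll1-5 mean at -1.26 in place of -0.45, with -0.81 at a normexp offset of 10. Averaged over its 3 probes, H2-K1 was at -0.01 in Dll1-3 and -1.08 in Dll1-5, with a limma adjusted p of 0.413 over both lines.

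A probe under another name overlaps probe 1. It is named LOC56628, is described on the array as an MHC class I antigen, and lies at 31700167 to 31700221 on the same strand. It was singled out after its values were seen, and it belongs to no list used here. Its log2 ratios were -0.41 and -0.20 in Dll1-3 and -2.68 and -2.34 in Dll1-5, so both probes at this position were low in the Dll1-5 line. A further LOC56628 probe lies in the H2-D region, at 32970324 to 32970383, and had -0.16 and -0.31 in Dll1-3 and 0.02 and -0.06 in Dll1-5. Probes of 1 name thus differed, and the cause was not tested. The first LOC56628 probe lies almost wholly within the positions of H2-K1 probe 1, so these 2 probes are not separate measures. In a window of 100000 bases on each side of H2-K1 probe 1, 16 further gene names had probes that passed the filter. Their Dll1-5 log2 ratios ran from -0.92 to 0.60 with a median of -0.10. Of the 16, 0 reached 2-fold. Over all probes, 2.56% were 2-fold higher and 3.02% 2-fold lower on both Dll1-5 arrays, so a count of 0 is not unusual. The lowest of them, LOC624288, is described on the array as similar to a class I heavy chain, and was at 0.02 in Dll1-3 and -0.92 in Dll1-5.

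**Figure D2:**
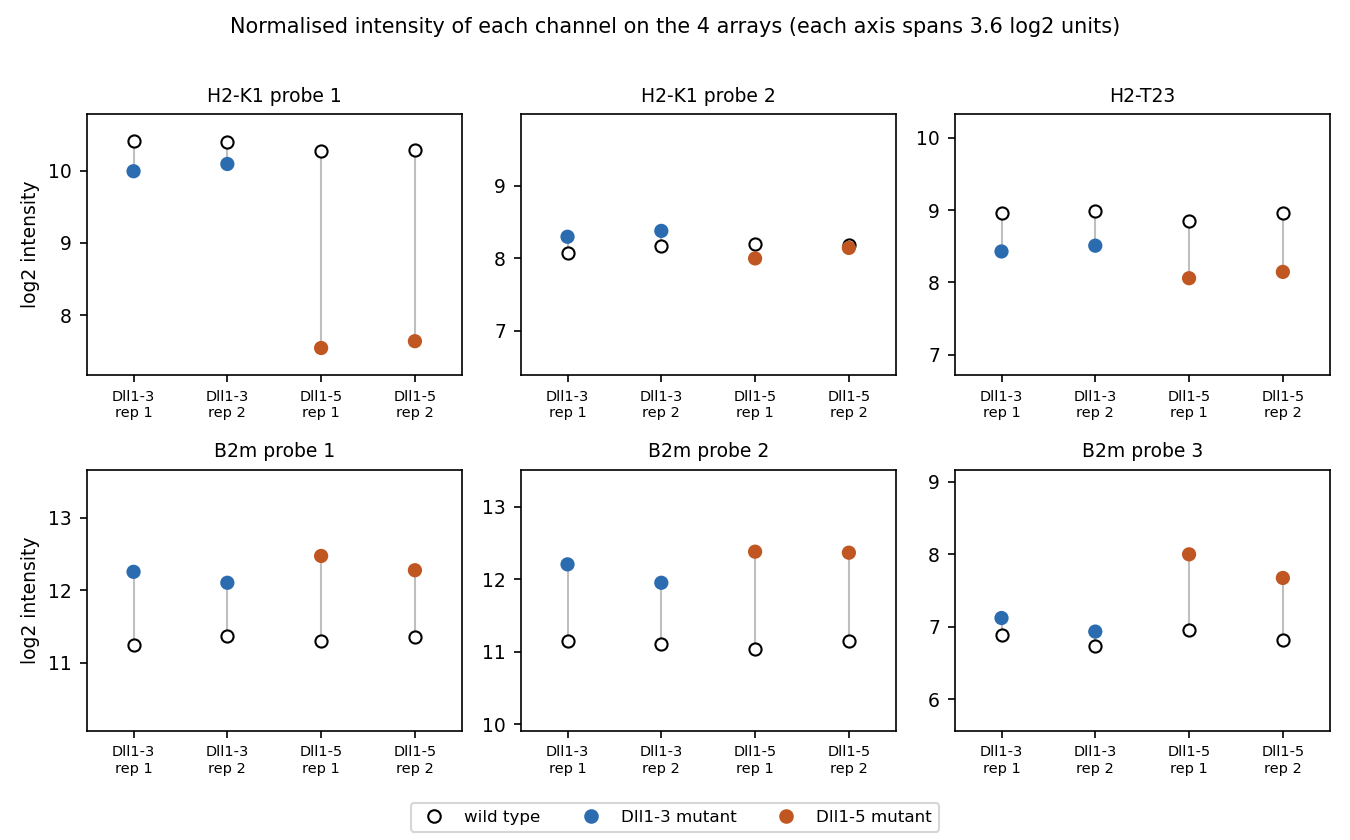
Normalised log2 intensity of wild-type (open circles) and mutant (filled circles) channels on each of the 4 arrays for 6 probes; grey lines join the channels of an array. H2-K1 probe 1 is at 10.28 in wild type and 7.65 in the mutant on Dll1-5 replicate 2, while on B2m probe 1 and probe 2 every mutant channel lies above every wild-type channel.

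H2-D1 encodes another classical heavy chain. Its probe 1 (32970629 to 32970861, plus strand) was near wild type in Dll1-3, with log2 ratios of -0.06 and 0.07, and lower in Dll1-5, with -0.53 and -0.34. The arrays of the lines did not overlap, and the difference was -0.44 with an adjusted p of 0.0645 with arrays counted as samples. Over both lines the mean was -0.22 and the limma adjusted p 0.476. The accessions listed for this probe are also listed for both LOC56628 probes, so the genes cannot be told apart by name here. Probe 2 (33959739 to 33959798, minus strand) lies 988878 bases from probe 1, and a clone listed for it is listed for an H2-T3 probe too. It had log2 ratios of 0.01 and -0.24 in Dll1-3 and -0.05 and -0.28 in Dll1-5, with the lower value of each line on the array where the mutant was in Cy3.

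H2-T23 encodes the nonclassical heavy chain Qa-1, which is known for inhibiting natural killer cells. Its probe (33749415 to 33749651, minus strand) was below wild type on all 4 arrays. Wild-type intensity ran from 8.85 to 8.99 and mutant intensity from 8.06 to 8.51, so the groups did not overlap. The log2 ratios were -0.53 and -0.48 in Dll1-3 and -0.79 and -0.82 in Dll1-5. Their mean was -0.65 ± 0.21 (SD, n = 2 lines), with an unadjusted p of 0.0151 and an adjusted p of 0.108 in limma. With the 4 arrays counted as separate samples the limma adjusted p was 0.00310, in a fit where 33% of all probes passed 0.05.

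B2m encodes beta-2 microglobulin, the light chain that pairs with class I heavy chains. Each B2m probe was above wild type in both lines, while no H2-K1, H2-D1 or H2-T23 probe was above it in both. Probes 1 (121666643 to 121666699) and 2 (121666519 to 121666578) lie 65 bases apart on chromosome 2. On probe 1, wild-type intensity ran from 11.25 to 11.37 and mutant intensity from 12.10 to 12.47. The log2 ratios of probe 1 were 1.01 and 0.73 in Dll1-3 and 1.17 and 0.92 in Dll1-5. Those of probe 2 were 1.06 and 0.85 in Dll1-3 and 1.34 and 1.21 in Dll1-5, or 1.94-fold and 2.43-fold as line means. Within each line the higher ratio stood on the array with the mutant in Cy5, and every array was above 0.

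The mean over the lines was 0.96 ± 0.12 for probe 1 and 1.12 ± 0.23 for probe 2 (SD, n = 2 lines). The unadjusted p was 0.00293 for probe 1 and 0.00416 for probe 2 in limma. After adjustment these were 0.0758 and 0.0786, close to 0.0756, the smallest adjusted p that any probe on the array had. Over the alternative settings the mean ran from 0.89 to 1.24 for probe 1 and from 1.06 to 1.39 for probe 2. With arrays counted as separate samples the limma adjusted p was 0.000968 for probe 1 and 0.000795 for probe 2. In that fit 33% of all probes passed an adjusted p of 0.05.

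B2m probe 3 (121662717 to 121662776) lies 3743 bases from probe 2 and is listed for an embryo head cDNA that the array calls unclassifiable. Its wild-type intensity ran from 6.73 to 6.96. The log2 ratios were 0.23 and 0.20 in Dll1-3 and 1.04 and 0.85 in Dll1-5. The probe was thus near wild type in one line and close to the other B2m probes in the other. The difference of 0.73 had an adjusted p of 0.0123 with arrays counted as samples. The scanner software's ratios put it at 0.45 and 1.76. B2m averaged over its 3 probes was at 0.68 in Dll1-3 and 1.09 in Dll1-5, with a limma adjusted p of 0.0956.

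**Figure D3:**
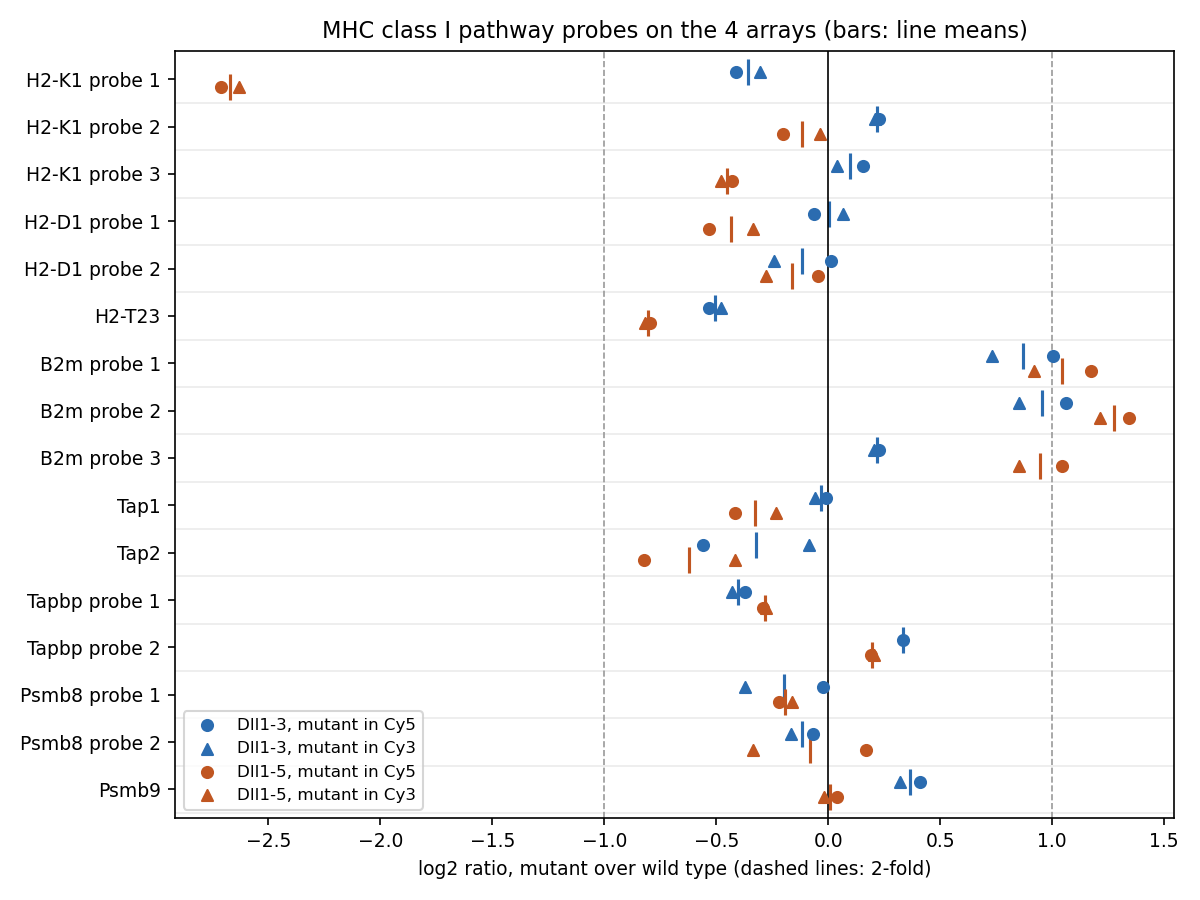
The 16 class I pathway probes by array, as log2 of mutant over wild type; circles are arrays with the mutant in Cy5, triangles arrays with the mutant in Cy3, vertical bars line means and dashed lines 2-fold. H2-K1 probe 1 stands at -2.67 in Dll1-5, the B2m probes lie to the right of 0, and most other probes lie within 1 of 0.

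Tap1 and Tap2 encode the subunits of the peptide transporter, and both leaned to lower values in Dll1-5. Tap1 (31899465 to 31899524) had log2 ratios of -0.01 and -0.06 in Dll1-3 and -0.42 and -0.23 in Dll1-5, with a limma adjusted p of 0.444 over both lines. The probe was dim, at wild-type intensities of 6.51 to 6.67, and the mutant was well above background on 1 of 2 Dll1-5 arrays. The scanner software's ratios put Tap1 at -0.10 in Dll1-3 and -1.47 in Dll1-5, and a normexp offset of 10 put Dll1-5 at -0.64, so the size of its change depended on the processing. Tap2 (31920396 to 31920983) had log2 ratios of -0.56 and -0.08 in Dll1-3 and -0.82 and -0.42 in Dll1-5. All 4 values were negative, and the mean was -0.47 ± 0.21 (SD, n = 2 lines) with a limma unadjusted p of 0.0335 and an adjusted p of 0.151. The scanner software's ratios put Tap2 at -0.55 and -1.20.

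Tapbp encodes tapasin, the chaperone that ties the transporter to the heavy chain. Its probes, 2867 bases apart, had opposite signs in both lines. Probe 1 (31632821 to 31632880) had log2 ratios of -0.37 and -0.43 in Dll1-3 and -0.29 and -0.28 in Dll1-5, with a limma unadjusted p of 0.0321 and an adjusted p of 0.148. Probe 2 (31629895 to 31629954) had 0.33 on Dll1-3 replicate 1 and 0.19 and 0.20 in Dll1-5, with an adjusted p of 0.210. Its spot on Dll1-3 replicate 2 was an outlier and was left out, so that line rests on 1 array. The array lists probe 1 for transcript variant 1 and probe 2 for transcript variant 2. Averaged over both probes Tapbp was at -0.03 in Dll1-3 and -0.04 in Dll1-5.

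Psmb8 and Psmb9 encode catalytic subunits that replace their constitutive counterparts in the immunoproteasome. Psmb8 was at the edge of detection. Probe 1 (31906439 to 31906763) was well above background in wild type on 3 of 4 arrays and in the mutants on 0 of 4. The probe passed the filter only through its wild-type channels, which favours a lower mutant value. Wild-type intensity was itself dim, at 6.00 to 6.19. With mutant values below the lowest well-measured signal raised to it, wild type was 1.11-fold higher in Dll1-3 and 1.14-fold in Dll1-5. A decrease is not established by these values, and probe 1 had a limma adjusted p of 0.260 over both lines. Probe 2 (31906382 to 31906441) overlaps it and had log2 ratios of -0.07 and -0.17 in Dll1-3 and 0.17 and -0.34 in Dll1-5, with no common direction. Psmb9 (31887861 to 31887920, minus strand) was higher in Dll1-3, at 0.41 and 0.32, and level in Dll1-5, at 0.04 and -0.02. Its difference of -0.36 had an adjusted p of 0.0750 with arrays counted as samples, and the scanner software's ratios put its Dll1-3 mean at 0.72 in place of 0.37.

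Over both lines together, 0 of the 16 probes passed an adjusted p of 0.05 in limma, against 0% of all 34444 probes tested. At an unadjusted p under 0.05, 2 member probes were higher (background 11.7%) and 3 lower (background 15.2%). These were B2m probes 1 and 2 on the high side, and H2-T23, Tap2 and Tapbp probe 1 on the low side. Of the 15 probes with a value on every array, 3 had a positive ratio on all 4 (background 23.9%) and 6 a negative one (background 25.6%). With arrays counted as separate samples, 6 of the 16 passed an adjusted p of 0.05, against 33% of all probes. Of the members, 0 were 2-fold higher on all 4 arrays (background 1.41%) and 0 were 2-fold lower (background 2.25%). These shares describe the members, which were not a random draw from the array.

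In the Dll1-3 line 0 member probes were 2-fold higher on both arrays (background 3.99%) and 0 were 2-fold lower (background 5.18%). In the Dll1-5 line B2m probe 2 was 2-fold higher on both arrays (background 2.56%) and H2-K1 probe 1 was 2-fold lower (background 3.02%). The lines have 1 pooled sample each by this reading, so these are counts without a test. The median size of the log2 ratio, leaving the sign aside, was 0.27 in Dll1-3 and 0.38 in Dll1-5 over the members, and 0.22 and 0.17 over all probes tested.

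Between the lines, 10 probes were lower in Dll1-5 than in Dll1-3 and 6 were higher. For 10 probes both arrays of one line lay above both of the other, 7 of them lower in Dll1-5. The background was 52.4% for both directions, which is close to the share among the members. The share of all probes by direction was not counted for either split, so the lean to lower values is not a result about the members. H2-K1 probe 1 was the 1 member whose lines were also 2-fold apart, and lower in Dll1-5 (background 1.54%), while 0 were 2-fold higher in Dll1-5 (background 2.32%). With arrays counted as separate samples, 3 member probes passed the limma test of the difference, against 16.8% of all probes. These were H2-K1 probes 1 and 3 and B2m probe 3. With dye orientation as a replicate block 10 passed, among them H2-D1 probe 1 (adjusted p 0.00690) and Psmb9 (adjusted p 0.0114), against 37.3% of all probes. Both lines were measured against wild type, and a shared wild-type pool would enter both ratios.

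**Figure D4:**
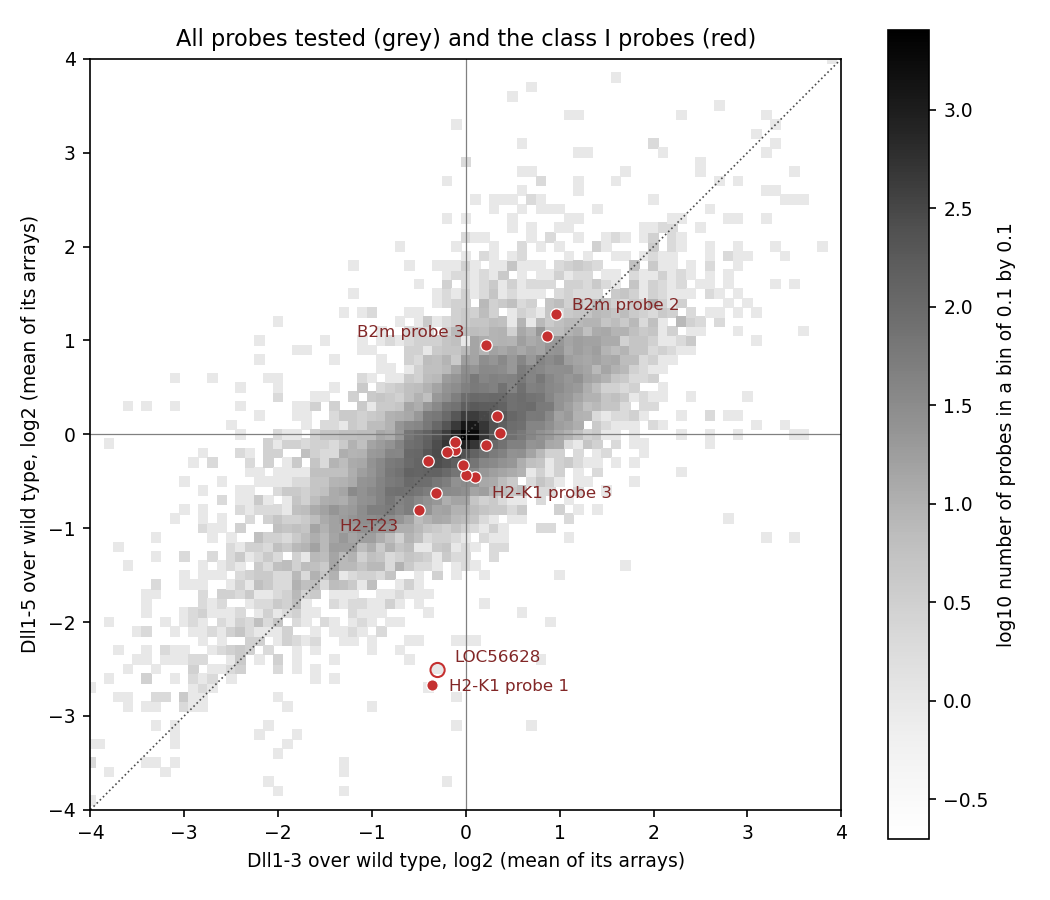
Line means of the log2 ratio in Dll1-3 (horizontal axis) and Dll1-5 (vertical axis) for all probes tested, binned in grey, with the 16 class I pathway probes in red and the LOC56628 probe that overlaps H2-K1 probe 1 as an open circle. H2-K1 probe 1 lies at -0.36 and -2.67, far below the dotted line of equal ratios.

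The other class I heavy chain genes, taken with the brightest probe of each gene, had mostly lower values in the mutants. Of 22 genes measured, 0 lay higher and 8 lower by an unadjusted p under 0.05 (12.3% and 15.9% of all genes), and 0 passed after adjustment. Their median log2 ratio was -0.18 over both lines, -0.06 in Dll1-3 and -0.18 in Dll1-5, against 0.01 over both lines for all probes tested. The 8 lower genes included Azgp1, Cd1d1, Cd1d2 and Fcgrt, which lie outside the MHC region on chromosomes 3, 5 and 7. They also included H2-Q10, at -0.50 over both lines on its brightest probe and from -0.05 to 0.08 on its other measured probes. H2-Q7, a Qa-2 gene, had -0.39 and -0.40 in Dll1-3 and -0.95 and -0.91 in Dll1-5. The brightest of the H2-Q1 probes had 0.02 and -0.08 in Dll1-3 and -1.01 and -0.91 in Dll1-5, while its other measured probe was at -0.15 in Dll1-5. Cd1d1, which presents lipids and pairs with beta-2 microglobulin, was lower in both lines, at -2.22 and -1.95 in Dll1-3 and -1.03 and -0.78 in Dll1-5. Class I genes are close copies of each other, and how far their probes cross-hybridise was not tested.

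Peptide loading and trimming genes showed no common direction. Of 12 genes, 1 lay higher and 2 lower by an unadjusted p under 0.05 (12.3% and 15.9% of all genes), with a median log2 ratio of -0.06. The higher one was Erap1, which trims peptides in the endoplasmic reticulum, at 1.01 in Dll1-3 and 0.45 in Dll1-5. The lower ones were the chaperone genes Calr, at -0.71 and -0.29, and Canx, at -0.72 and -0.53. Lap3, a cytosolic aminopeptidase gene, differed between the lines, at -0.06 in Dll1-3 and 1.17 in Dll1-5 on the probe named by the rule. Its other probes averaged over both lines gave 0.71 to 0.90.

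Proteasome genes were mostly above wild type. Of 19 genes, 8 lay higher and 3 lower by an unadjusted p under 0.05 (12.3% and 15.9% of all genes), with a median log2 ratio of 0.29, and 0 passed after adjustment. Psmb10, the third immunoproteasome catalytic gene, had 0.60 and 0.52 in Dll1-3 and 0.82 and 0.69 in Dll1-5, with a limma unadjusted p of 0.00882 and an adjusted p of 0.0904. It was thus above wild type on every array, where the dim Psmb8 probes were not. Psma5, an outer-ring subunit gene, was at 0.36 in Dll1-3 and -0.75 in Dll1-5.

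Among 34 genes that regulate class I, 6 lay higher and 3 lower by an unadjusted p under 0.05 (12.3% and 15.9% of all genes), and the median log2 ratio was 0.11. Nlrc5, the class I transactivator, was near wild type on all arrays, at 0.07, -0.10, 0.16 and -0.02. Irf1 was at 0.24 in Dll1-3 and 0.70 in Dll1-5 on 1 probe and at 0.08 and 0.25 on the other. Nfkb1, which encodes the p50 subunit of NF-kB, had 4 probes. The one named by the rule was at -1.25, -1.26, -1.19 and -1.16, with a limma adjusted p of 0.0756. Its other probes lay between -1.24 and -0.36 over both lines. The probe that stands for Nfkb1 in the count was at 0.03 in Dll1-3 and -0.75 in Dll1-5, with a limma adjusted p of 0.469. Jak2, a kinase gene of interferon signalling, had a mean of -1.54 in Dll1-3 and of -0.44 in Dll1-5, with its other probe at -0.32 over both lines.

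Class II genes were near wild type. They were dim as a set, with summed linear intensity from 976.5 to 1187 over 10 genes by channel, so small ratios say little here. Of 10 measured genes 1 was higher and 0 were lower at an unadjusted p under 0.05 (12.3% and 15.9% of all genes). The higher one was H2-DMb1, at 1.22 in Dll1-3 and 0.71 in Dll1-5. Cd74, the invariant chain gene, was at 0.14 and 0.04. Neighbours in the MHC region lay on both sides of wild type. Of 52 genes 11 were higher and 7 were lower at an unadjusted p under 0.05 (12.3% and 15.9% of all genes), with a median log2 ratio of 0.01. Notch4, a Notch receptor gene within the region, stood at 0.58 in Dll1-3 and 2.58 in Dll1-5, opposite to H2-K1 probe 1. Ppp1r10 stood at 0.56 and 2.36 on 1 of its probes, with its others between 0.25 and 0.56 over both lines. Hspa1a, a heat shock gene, was at -1.87 and -1.45, with its other probes between -1.41 and -0.20, and Vars, a tRNA synthetase gene, at 1.73 and 1.19.

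**Figure D5:**
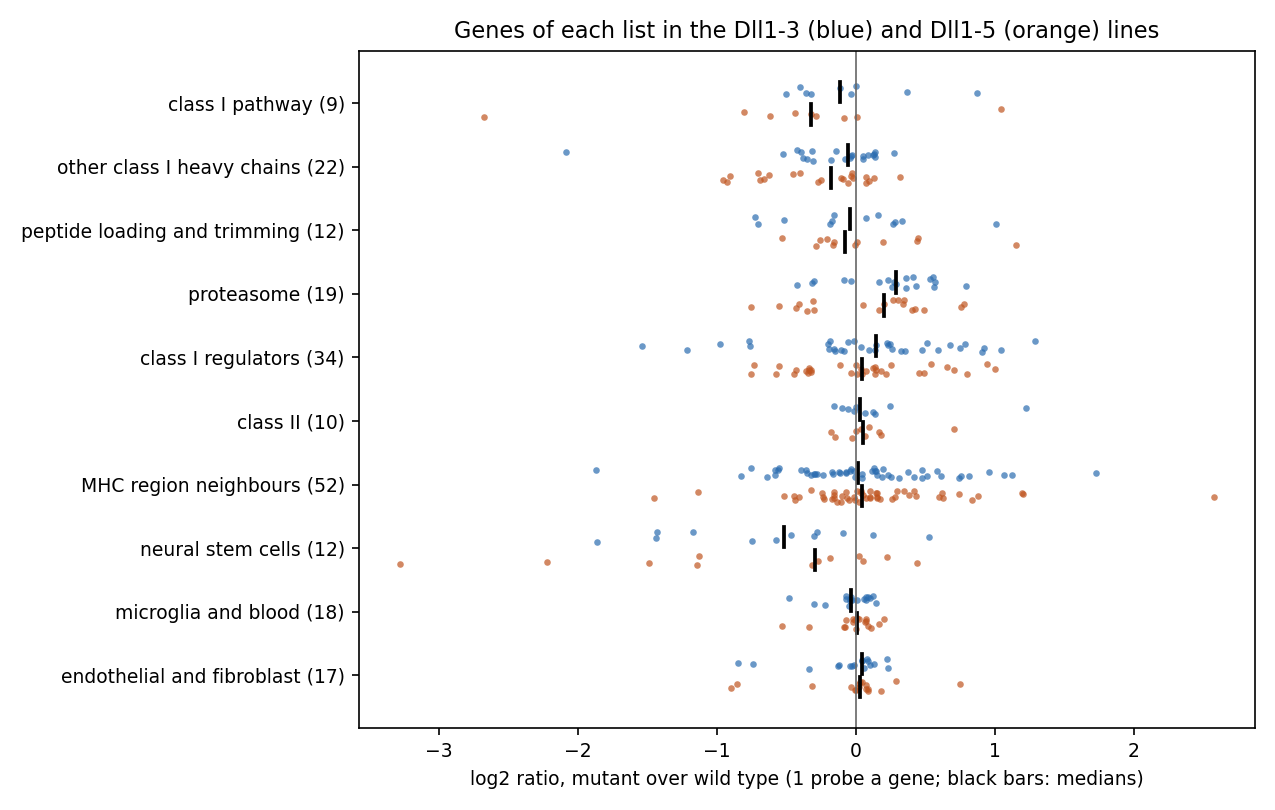
Log2 mutant over wild type in the Dll1-3 (blue) and Dll1-5 (orange) lines for the genes of each list, 1 probe a gene, with medians as black bars and the number of genes in brackets. The other class I heavy chain genes have a Dll1-5 median of -0.18 and the proteasome genes one of 0.20, and the neural stem cell markers have medians of -0.52 in Dll1-3 and -0.30 in Dll1-5.

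Markers of cells that are rich in class I were also read. Of 21 microglia and blood markers, 18 passed the filter and 2 were nowhere well above background. Their summed linear intensity ran from 2729 to 2968 in the mutant channels and from 2771 to 3153 in the wild-type channels, so the groups overlapped. At an unadjusted p under 0.05, 0 were higher and 2 lower (12.3% and 15.9% of all genes), the lysozyme gene Lyz2 at -0.48 and -0.53 and P2ry12 at -0.30 and -0.34. Ptprc, which encodes the leukocyte marker CD45, was at 0.07 and -0.02. Of 17 endothelial and fibroblast markers, 0 were higher and 3 lower. Their sums ran from 8746 to 11290 in the mutants and from 11560 to 12870 in wild type. On every array 5 of these markers were positive and 3 negative, against 23.9% and 25.6% of all probes. The median log2 ratio of these markers over both lines was 0.03. The lower sums therefore do not describe the typical marker of this list. The neural stem cell sums ran from 63250 to 83910 in the mutants and from 101600 to 118200 in wild type, with Msi2 at -1.42 and -1.26 on 1 probe and its other probes between -1.93 and -0.52 over both lines. Sox2 was at -1.43 and -1.49 on 1 probe and at -0.02 over both lines on the other. Hes1, the 1 stem cell marker that was higher at an unadjusted p under 0.05, was at 0.52 in Dll1-3 and 0.44 in Dll1-5. Slc1a3 was lower in Dll1-5 than in Dll1-3, at -2.22 and -1.17, with its other probes between -0.90 and -0.71 over both lines. Pax6 was at -1.86 in Dll1-3 on 1 probe and not well above background in the Dll1-5 mutant, at least 9.12-fold lower than wild type there, with its other probes between -0.60 and 0.18 over both lines. The stem cell and the endothelial and fibroblast sums were lower in every mutant channel than in every wild-type channel, and their part in the class I results was not tested.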

How the data were processed

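Neurosphere RNA was hybridised to 4 two-colour Agilent arrays with 43790 spots each. Per the file headers, the deposited scanner files give intensity and background per spot from Agilent Feature Extraction 8.1.1.1 (the version is from the submitters' processing notes), with the scanner software's own log10 ratios beside them. The authors' deposited value table holds log10 ratios with medians of -0.03 to 0.01. Its columns correlated with the arrays' mutant over wild-type ratios at -0.962 to -0.954, so it was read as wild type over mutant, and its normalisation is unknown.

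Mean intensities were background-corrected with normexp (offset 50), normalised by loess (span 0.3) within each array, and turned to log2 mutant over wild type, in limma 3.58.1 (R 4.3.3). The 2256 control spots and outlier spots were left out, and 34446 probes well above background passed the filter. Arrays of a line were averaged, and limma (lmFit, eBayes) tested the mean of the 2 lines against 0, with Benjamini-Hochberg adjustment over all 34444 probes with values. Intensity levels are channels after loess and Aquantile normalisation. Single lines and their difference have no test in the main design. The difference was also fitted with 4 arrays as separate samples, which treats dye-swapped arrays of perhaps the same pools as independent. The limma fits were tried on simulated line means and array ratios, while background correction, normalisation and filtering were not tested in this way.

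The members and gene lists were chosen with earlier results of these data known. Named genes are all members, Dll1, Nlrc5, Irf1 and Psmb10 (a further gene of this rule is not reported here), and up to 4 genes per list by the smallest p among probes 2-fold on all arrays, then by the difference between lines. Other genes named within a list and the LOC56628 and LOC624288 probes were picked after their values were seen. These genes were Erap1, Calr, Canx, Cd74, H2-DMb1, H2-Q7, H2-Q1, H2-Q10, Azgp1, Cd1d2, Fcgrt, Lyz2, P2ry12, Ptprc and Hes1. Symbols were updated through RefSeq accessions (GRCm38.p6) for 13750 genes. Promoters were searched with Python 3.11.15 and aligned with biopython 1.88 (local alignment). The alternatives were a normexp offset of 10, no background correction, the scanner software's ratios, the value table, median centring, other filters, outlier spots kept, arrays as separate samples, other moderation, 1.5-fold and leaving out each array.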

Additional observations from a re-analysis of the deposited data

Results flagged for a closer look

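On 4 member probes the lines stood apart by a test or by the sign of every array. H2-K1 probe 1 was lower in Dll1-5 than in Dll1-3 by -2.31 on the log2 scale, with a limma adjusted p of 0.000852 when the 4 arrays were counted as separate samples. H2-K1 probe 3 differed by -0.55, with positive ratios on both Dll1-3 arrays and negative ones on both Dll1-5 arrays, and a limma adjusted p of 0.0220 in the same fit. B2m probe 3 was higher in Dll1-5 by 0.73, with a limma adjusted p of 0.0123. H2-K1 probe 2 differed by -0.34, again with opposite signs on every array, and its limma adjusted p of 0.102 did not pass. These tests count dye-swapped arrays as samples, so they speak for these arrays and not for further lines of mice.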

How the results depend on the processing

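Over both lines, 0 probes passed in the main fit and 9274 had an unadjusted p under 0.05. The count became 1718 with a normexp offset of 10, 938 with the scanner software's ratios, 1662 with trended and robust moderation, 11301 with 4 arrays as separate samples, 9573 with line as a random block, and 0 to 2830 when 1 array was left out (2402 without Dll1-3 replicate 1, 2830 without Dll1-5 replicate 2). Probes 2-fold in Dll1-3 numbered 3134, and 5646 with the scanner's ratios, 5525 with the value table, 1411 with median centring, 6874 at 1.5-fold, and 3136 to 3857 leaving out 1 array. In Dll1-5 they numbered 1911, and 4076, 3974, 868, 4968, and 1914 to 2405 in the same order. Probes 2-fold apart between the lines numbered 1317, and 3451, 3435, 866, 4331, and 1409 to 1453, with 2136 at an offset of 10 and 5728 by the limma test of the difference. With a replicate block of dye orientation, which same-numbered arrays share (correlation of their deviations 0.678), the counts were 9624 over both lines and 12770 for the difference. The number marks dye orientation and is not known to pair samples, and with the block the mean of B2m probe 3 over both lines had a limma adjusted p of 0.110, against 0.0449 without it, while its difference between the lines had 0.00286.

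H2-K1 probe 1 in Dll1-5 ranged from -3.22 to -2.58 over 13 settings. Of the 16 members, the sign over both lines turned for 1, Psmb8 probe 2, which ran from -0.2269 without Dll1-5 replicate 1 to 0.027 without Dll1-5 replicate 2. With the scanner's ratios Psmb8 probe 1 went from -0.19 to -1.22 over both lines, Tap1 from -0.18 to -0.79, B2m probe 3 from 0.58 to 1.11 and Tap2 from -0.47 to -0.88. The 2 lines leave 1 residual degree of freedom, which limits every p-value.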
